A study of Mus musculus with 12 samples.

Results

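The genes described here encode enzymes of liver triglyceride synthesis, from the first acylation to the last, and the protein that loads triglyceride into lipoproteins. They are Gpam, Agpat2, Agpat3, Lpin1, Lpin2, Dgat1, Dgat2 and Mttp, and their probes were taken as every array probe whose platform gene symbol was among these 8 names. That gave 16 of 45281 probes. Of these, 13 were detected on at least 3 arrays (detection p below 0.01) and were tested, so that all 8 genes had at least 1 tested probe among the 8819 genes tested.

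Total RNA of mouse liver was hybridized to Illumina BeadChips. The leptin group was insulin-deficient mice of mixed strain background that received leptin into a brain ventricle (icv), at 25 ng in 0.11 µL per hour, with livers taken on day 10 after leptin. The PBS group was insulin-deficient mice likewise labelled as of mixed background that received icv phosphate-buffered saline, for which no volume or day is recorded in the labels used here. There were 6 arrays in each group, numbered 1 to 6. Insulin deficiency was shared by both groups, so a difference here is one between leptin and PBS within insulin deficiency. No label or header used here tells how insulin was removed, or the age and sex of the animals. Whether each array stands for its own mouse is not labelled, and p-values then reflect only how these samples scatter, some of which may be technical.

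Triglyceride is built on glycerol 3-phosphate in a chain of steps. A glycerol-3-phosphate acyltransferase (Gpam, at the mitochondrial outer membrane) adds the first fatty acid, an acylglycerol-phosphate acyltransferase (the Agpat family) adds the next to give phosphatidic acid, a lipin removes the phosphate to give diacylglycerol, and a diacylglycerol acyltransferase (Dgat1 or Dgat2) adds the last fatty acid. Mttp makes no lipid itself: it transfers triglyceride onto apolipoprotein B as very-low-density lipoprotein (VLDL) is assembled. In liver, insulin is known to raise Gpam through SREBP-1c and to restrain Mttp through FoxO1, and Lpin1 is known to be induced by fasting.

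Between 13159 and 14431 probes were detected per array. The liver label was borne out, with 7 of 7 hepatocyte markers on the array detected, although 2 of them fell with leptin. Adipocyte markers bear on these genes because fat cells express the same pathway. None of the 6 adipocyte markers on the array was detected on 3 arrays, Adipoq, Plin1, Retn, Lep and Cidea were detected on none, and their summed signal ran from 697.6 to 709.2 on leptin arrays and from 706.4 to 741.8 on PBS arrays. Among 6 enterocyte markers, Fabp2, Vil1, Lct, Sis and Alpi were detected on no array. The other, Apoa4, which liver also expresses, was detected on all 12 and fell with leptin (-1.14 ± 0.31, adjusted p = 0.0244). Of 8 pancreatic acinar markers on the array, Cela3b, Cpa1, Cpb1, Ctrb1 and Cel were detected on no array. Of the 3 tested, Cela2a rose (2.57 ± 0.52), Amy2a5 fell (-0.48 ± 0.12) and Cela1 did not pass (0.28 ± 0.26, limma adjusted p = 0.493). Kupffer cell markers rose in 2 of 6 tested and none fell, with summed signals of 5228.2 to 11736.5 on leptin arrays and 3692.9 to 6822.3 on PBS arrays. Lymphocyte markers rose in 3 of 3 tested, with summed signals of 527.5 to 654.9 on leptin arrays and 465.1 to 511.6 on PBS arrays. Cd3e was detected on 5 leptin arrays and no PBS array, Cd3g on 4 and none, and Cd79b on 6 and 1. These 3 passed the detection filter through the leptin arrays, so that their count is not read. Ptprc, also on the array, was detected on none. Over all genes tested 8.31% rose and 8.4% fell. The part of these cell types in the results below was not tested. In bulk liver fewer cells of a type and less RNA per cell cannot be told apart.

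Some clock genes differed between the groups, and a pair of arrays stood apart in them. Of 10 tested clock genes, 3 rose and 2 fell with leptin, against 8.31% and 8.4% of all genes tested. Dbp, a clock output factor, rose (log2 difference 2.65 ± 0.53, SE), as did the clock repressor gene Per1 (0.79 ± 0.15), whereas Clock fell (-1.03 ± 0.14). Arntl, the partner of Clock, was detected on no leptin array and 5 PBS arrays, and was at least 1.95-fold lower with leptin (limma adjusted p = 0.00159). A clock score was the mean of the 10 genes, each in SD units over the 12 arrays, with the sign of Arntl and Clock turned. It was 0.61 to 0.98 on 5 leptin arrays but -0.58 on leptin 4, and -0.66 or lower on 5 PBS arrays but 0.50 on PBS 3. Values without this pair of arrays are given below where they move a member by over 1.5 times, change its sign or end a call.

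Of the 8 genes, Agpat2 and Dgat1 fell with leptin and none rose; the other 6 did not pass. The test was limma on background-corrected, quantile-normalized log2 intensities across all 8819 genes, with a Benjamini-Hochberg adjusted p under 0.05. Over all genes 16.7% passed in either direction, 8.4% lower and 8.31% higher with leptin. With only 8 genes, a count of 2 is not read as setting them apart from the array. Without leptin 4 and PBS 3 the same count of 2 was called. The median log2 difference of the 8 genes was -0.10, against 0.0039 over all genes. The plot of values by array shows the 8 genes side by side.

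**Figure D1:**
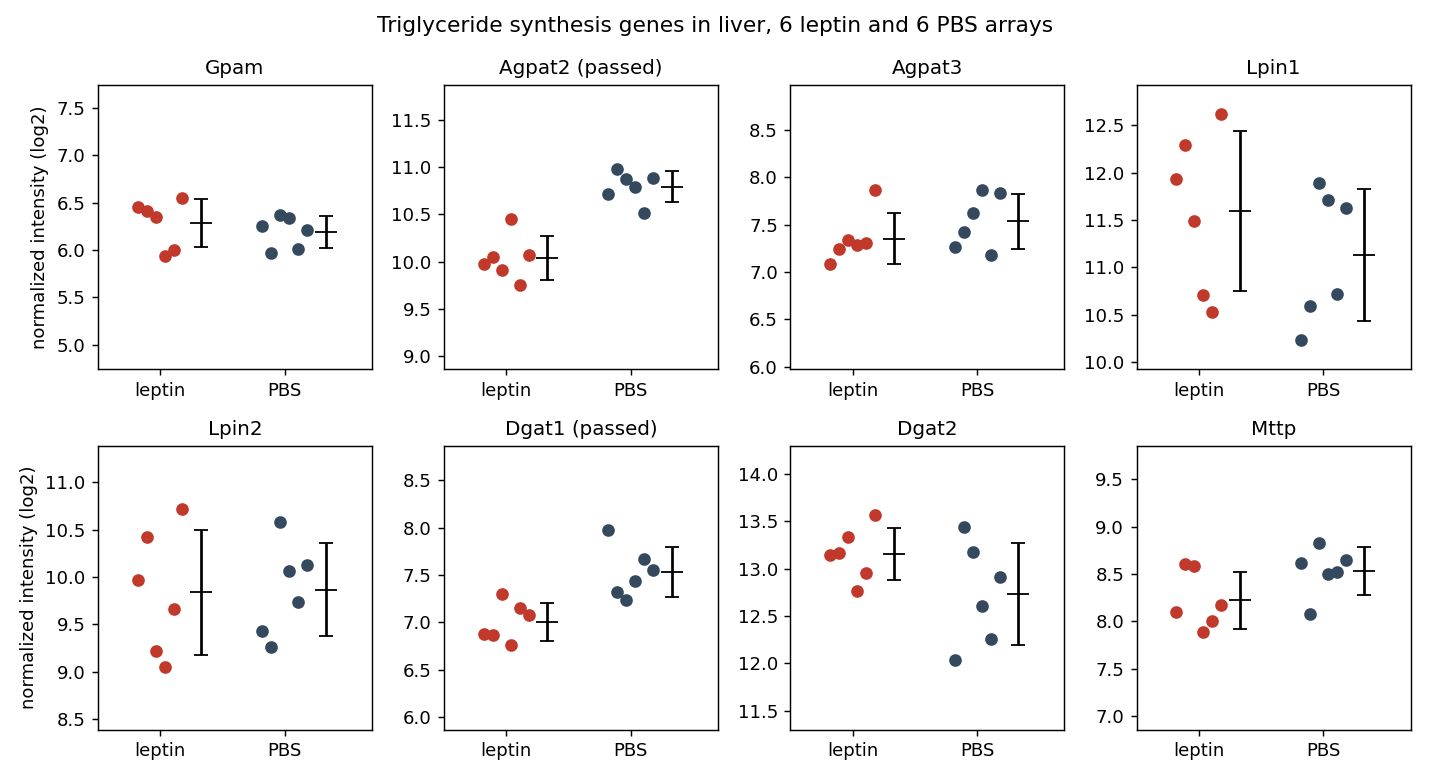
Normalized intensity (log2) of the 8 genes on each array, leptin left and PBS right, each panel spanning 3 log2 units. Points are arrays, and bars are the mean and SD of 6 arrays. Agpat2 separates the groups fully and Dgat1 nearly so, while Lpin1 and Lpin2 spread widely within both groups.

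For the first acylation, Gpam was dim and showed no difference beyond its spread. Of its 2 probes, 1 was detected on all 12 arrays and the other on none. The detected probe had normalized log2 intensities of 5.94, 6.38 and 6.55 (lowest, median and highest) on leptin arrays, against 5.97, 6.24 and 6.37 on PBS arrays. The groups overlapped almost wholly. The log2 difference was 0.09 ± 0.13 (SE, adjusted p = 0.675), with a 95% interval from -0.19 to 0.37. The deposited signal was 160.0 to 192.0 with leptin and 161.1 to 181.4 with PBS, not far above the median of 118.9 over all probes and arrays. Without leptin 4 and PBS 3 the Gpam difference was 0.19 (adjusted p = 0.331), and it turned to -0.21 once the clock score entered the fit (adjusted p = 0.465).

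The second acylation gave the clearest difference. Agpat2, the isoform whose loss causes lipodystrophy in people and mice, had log2 intensities of 9.76, 10.01 and 10.45 on leptin arrays, against 10.52, 10.83 and 10.98 on PBS arrays. The highest leptin array, leptin 4, lay below the lowest PBS array, PBS 5, so the groups did not overlap. Among the 8 genes this held for Agpat2 alone. Over all genes the groups did not overlap in 7.28%, with all leptin arrays below all PBS arrays in 4.13%. The means were 10.04 ± 0.23 with leptin and 10.80 ± 0.16 with PBS (SD, n = 6 each), a log2 difference of -0.76 ± 0.13 (SE, limma adjusted p = 0.00188), which is 1.69-fold. On the deposited scale the signals were 963.8 to 1497.1 with leptin and 1565.7 to 2117.1 with PBS.

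The other Agpat2 probe went the same way. Its signals ran from 787.1 to 1246.4 on leptin arrays and from 1053.7 to 1556.7 on PBS arrays, which overlap. Its log2 difference was -0.51 ± 0.15 (SE, limma adjusted p = 0.0288 over 15062 probes, of which 18.1% passed in either direction, 9.76% lower and 8.31% higher). Both probes were detected on all 12 arrays and varied together over them (r = 0.94 over the same 12 arrays, as a description). The authors' deposited table gives -0.71 and -0.47 for these probes and marks the brighter probe as down, the only such mark among the 16 probes.

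Agpat3, a relative of Agpat2 that also acts in membrane phospholipid making, did not pass. It had log2 intensities of 7.08, 7.29 and 7.87 on leptin arrays, against 7.19, 7.53 and 7.87 on PBS arrays. Leptin 6 was the high leptin array, and the other 5 lay at or below 7.34. The difference was -0.18 ± 0.16 (SE, adjusted p = 0.459), with a 95% interval from -0.52 to 0.16.

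Whether Agpat2 changed differently from Agpat3 was tested on the within-array log2 difference of both, whose size reflects probe brightness and is not read, but whose shift between groups is. It was 2.20, 2.69 and 3.16 on leptin arrays, against 2.92, 3.29 and 3.55 on PBS arrays. The shift was -0.58 ± 0.17 (SE; exact two-sided permutation p = 0.00866 over 924 splits, 0.0260 adjusted over 3 pairs). Agpat2 was lower relative to Agpat3 on leptin arrays.

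The starts of these relatives are shown because the shift of one against the other was tested. Each is the 250 bases before the RefSeq start (GRCm38.p6), 5′ to 3′ on the gene's strand, which is the minus strand for both, at chr2:26604418-26604667 for Agpat2 and chr10:78351701-78351950 for Agpat3. Capitals mark matches to any of 8 motifs.
Agpat2: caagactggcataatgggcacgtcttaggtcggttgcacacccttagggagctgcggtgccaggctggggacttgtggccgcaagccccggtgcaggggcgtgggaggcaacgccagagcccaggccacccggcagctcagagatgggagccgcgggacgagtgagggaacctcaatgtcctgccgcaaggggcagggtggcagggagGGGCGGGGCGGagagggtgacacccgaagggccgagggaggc
Agpat3: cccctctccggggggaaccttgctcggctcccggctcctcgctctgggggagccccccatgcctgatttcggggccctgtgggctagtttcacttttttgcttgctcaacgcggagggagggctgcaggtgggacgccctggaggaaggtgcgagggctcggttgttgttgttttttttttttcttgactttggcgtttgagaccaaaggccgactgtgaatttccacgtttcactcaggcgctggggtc
The motifs were CACGTG (the E-box bound by clock factors), GGGCGG (the Sp1 box), CCAAT (the box bound by the NF-Y factor), TATAAA (the TATA box), GTAAACA (the FoxO box), TCACNCCAC (a sterol response element), TTANGTAA (D-box) and the DR1 element of nuclear receptors, on both strands. The Agpat2 window held 2 overlapping Sp1 boxes, 42 to 37 and 37 to 32 bases before the start, a motif found in 32.7% of 32851 windows of the same length. The Agpat3 window held none of the 8. No match in a window says only that these letters are not there.

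The phosphatidate phosphatases were the most variable of the 8 genes and showed no group difference that passed. Lpin1 had log2 intensities of 10.53, 11.71 and 12.62 on leptin arrays, against 10.24, 11.17 and 11.89 on PBS arrays. Leptin 6, 2 and 1 were the highest and leptin 4 and 5 low, while PBS 3, 4 and 6 were high and PBS 1, 2 and 5 low, so the groups overlapped. The difference was 0.47 ± 0.39 (SE, adjusted p = 0.434), with a 95% interval from -0.37 to 1.30. Its within-group SD of 0.77 was larger than that of 96.5% of genes tested.

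Lpin2 spread in the same way, and its difference lay near 0. It had log2 intensities of 9.05, 9.81 and 10.72 on leptin arrays, against 9.26, 9.90 and 10.58 on PBS arrays, a difference of -0.03 ± 0.30 (SE, adjusted p = 0.964; 95% interval -0.66 to 0.61). The 6 arrays highest in Lpin1 were also the 6 highest in Lpin2, namely leptin 1, 2 and 6 and PBS 3, 4 and 6. No other pair among the 8 genes shared all 6; Gpam shared 5 of them with either lipin. This was seen after the values were known and is given as a description of these arrays.

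**Figure D2:**
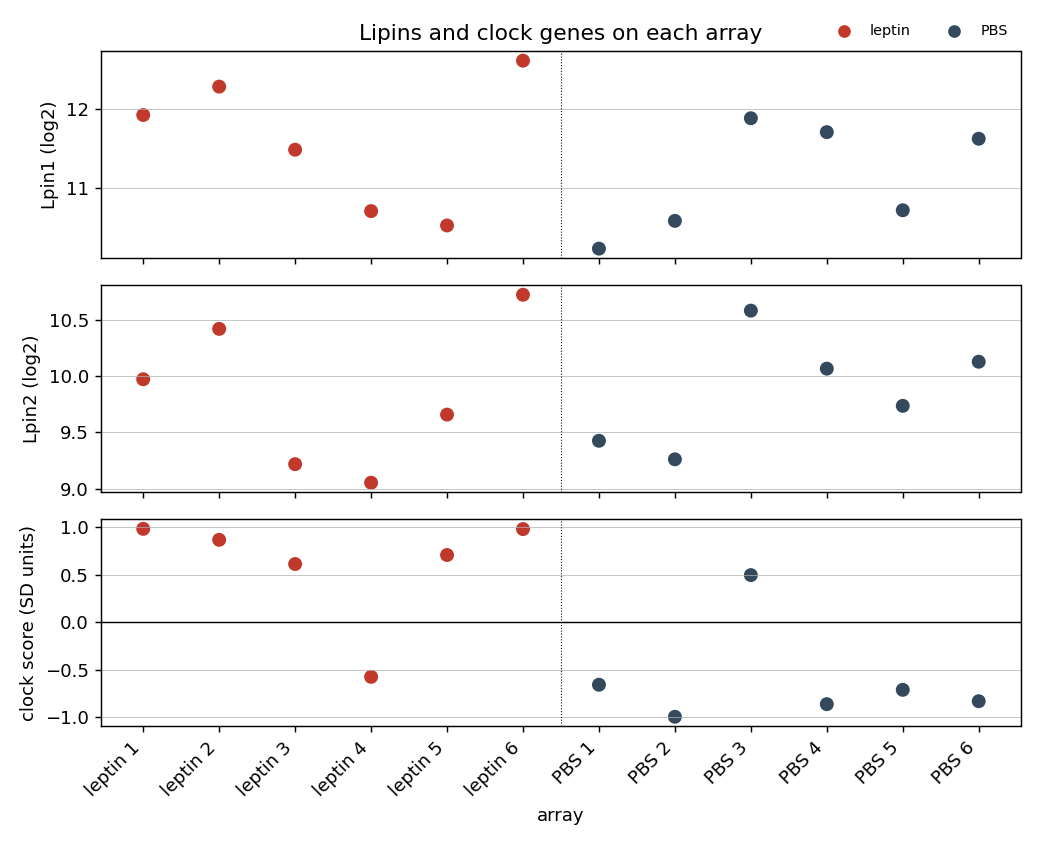
Log2 normalized intensity of Lpin1 (top) and Lpin2 (middle) and the clock score in SD units (bottom) on each array, leptin left of the dotted line and PBS right. Leptin 1, 2 and 6 and PBS 3, 4 and 6 are high in both lipins, while the clock score parts the groups except for leptin 4 and PBS 3.

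The lipins went with the clock score on some arrays and against it on others, and their association was not tested. Leptin 1, 2 and 6 had the highest scores (0.98, 0.87 and 0.98) and the highest Lpin1 (11.93, 12.29 and 12.62). PBS 1, 2 and 5 had low scores (-0.659, -0.997 and -0.713) and low Lpin1 (10.24, 10.59 and 10.72). Leptin 4, with a score of -0.58, was low in Lpin1 (10.71) and Lpin2 (9.05). PBS 3, with a score of 0.50, was the highest PBS array in both (11.89 and 10.58). Leptin 3 had a score of 0.61 and a low Lpin2 (9.22). Leptin 5 had a score of 0.71 and a low Lpin1 (10.53), whereas PBS 4 and PBS 6 had scores of -0.86 and -0.83 with high Lpin1 (11.71 and 11.63). Without leptin 4 and PBS 3 the Lpin1 difference was 0.79 (adjusted p = 0.179), and Lpin2 turned to 0.27 (adjusted p = 0.514). In the fit that held the clock score Lpin1 turned to -0.45 (adjusted p = 0.612) and Lpin2 stood at -0.90 (adjusted p = 0.0918), neither of which passed.

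Lpin1 and Lpin2 have 4 probes each, of which 3 were tested. The brighter pair for Lpin1 agreed over the arrays (r = 0.99 over 12 arrays, as a description), with log2 differences of 0.47 and 0.56 ± 0.39 (SE, adjusted p = 0.335 for the second). The dim probe, detected on 6 of 12 arrays, gave -0.07 ± 0.31. For Lpin2 the dim probes gave 0.23 ± 0.32 and -0.52 ± 0.21 (adjusted p = 0.655 and 0.0965), and followed the bright probe less closely (r = 0.16 and 0.54). None of the 6 passed.

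The shift of Lpin1 relative to Lpin2 was 0.49 ± 0.23 (SE; exact permutation p = 0.0671, also when adjusted over 3 pairs), with within-array differences of 0.87, 1.88 and 2.27 on leptin arrays, against 0.81, 1.32 and 1.65 on PBS arrays. It passed in 2 of 22 alternatives, without leptin 5 (0.67, adjusted p = 0.0130) and without PBS 4 (0.57, adjusted p = 0.0498). In the others it did not pass, and as a mean over kept probes it stood at 0.43 (adjusted p = 0.247). The same 250 bases before the start are shown for both because the brightest probes of Lpin1 and Lpin2 shared their 6 highest arrays. That was seen after the values were known. Lpin1 is on the minus strand at chr12:16610967-16611216, and the first of 3 listed starts of Lpin2 is on the plus strand at chr17:71183282-71183531.
Lpin1: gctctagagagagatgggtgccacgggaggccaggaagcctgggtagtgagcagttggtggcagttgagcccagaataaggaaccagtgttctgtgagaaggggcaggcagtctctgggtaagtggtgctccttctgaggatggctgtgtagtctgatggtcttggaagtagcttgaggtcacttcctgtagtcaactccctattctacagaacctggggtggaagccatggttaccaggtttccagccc
Lpin2: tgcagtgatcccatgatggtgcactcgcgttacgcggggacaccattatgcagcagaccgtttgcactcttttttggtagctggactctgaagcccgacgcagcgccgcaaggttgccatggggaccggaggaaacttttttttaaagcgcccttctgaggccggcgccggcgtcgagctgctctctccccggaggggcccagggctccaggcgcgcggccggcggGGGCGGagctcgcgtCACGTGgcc
The Lpin1 window held none of the 8 motifs. The Lpin2 window held an E-box 9 to 4 bases before the start, found in 6.02% of windows, and an Sp1 box 24 to 19 bases before it. Of the 3 Lpin2 starts only this one had an E-box. The window of the second start held an Sp1 box, and that of the third held CCAAT boxes and a FoxO box. These matches are descriptions of the letters only.

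For the last acylation, Dgat1 fell and Dgat2 did not pass. Dgat1, an enzyme of the endoplasmic reticulum that also re-esterifies fatty acids, had log2 intensities of 6.76, 6.98 and 7.30 on leptin arrays, against 7.23, 7.50 and 7.97 on PBS arrays. The groups overlapped only through leptin 3 (7.30), which lay above PBS 3 (7.23). The means were 7.0 ± 0.20 with leptin and 7.53 ± 0.27 with PBS (SD, n = 6 each), a log2 difference of -0.53 ± 0.14 (SE, limma adjusted p = 0.0232), which is 1.44-fold. The probe was dim, with deposited signals of 206.9 to 256.2 with leptin and 248.8 to 349.3 with PBS. On signals without background subtraction, the authors' deposited table gives -0.32.

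Dgat2, the isoform tied to newly made fatty acids and to droplet growth, was bright on every array. It had log2 intensities of 12.77, 13.15 and 13.56 on leptin arrays, against 12.04, 12.76 and 13.44 on PBS arrays. PBS 1 and PBS 5 were the lowest and PBS 2 nearly matched the highest leptin array, and the SD was 0.28 on leptin arrays and 0.54 on PBS arrays. The difference was 0.42 ± 0.23 (SE, adjusted p = 0.222), with a 95% interval from -0.07 to 0.90. In the fit that held the clock score Dgat2 stood at 0.09 (adjusted p = 0.885).

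Dgat1 moved lower relative to Dgat2. The within-array difference of both was -6.49, -6.15 and -5.81 on leptin arrays, against -6.13, -5.26 and -4.07 on PBS arrays. Its shift was -0.94 ± 0.34 (SE; exact permutation p = 0.0173, 0.0260 adjusted over 3 pairs). PBS 1 and PBS 5 held both the highest Dgat1 values, 7.97 and 7.66, and the lowest Dgat2 values, 12.04 and 12.26. The shift no longer passed on the deposited log2 values (-0.73, adjusted p = 0.0519) or without leptin 6 (-0.87, adjusted p = 0.0519).

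Mttp did not pass. It had log2 intensities of 7.89, 8.14 and 8.60 on leptin arrays, against 8.08, 8.57 and 8.82 on PBS arrays. PBS 2 was the low PBS array and leptin 2 and 3 the high leptin arrays, so the groups overlapped. The difference was -0.31 ± 0.16 (SE, adjusted p = 0.196), with a 95% interval from -0.65 to 0.03. Mttp stood at -0.18 without leptin 4 and PBS 3 (adjusted p = 0.457) and at -0.63 in the fit that held the clock score (adjusted p = 0.0699).

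**Figure D3:**
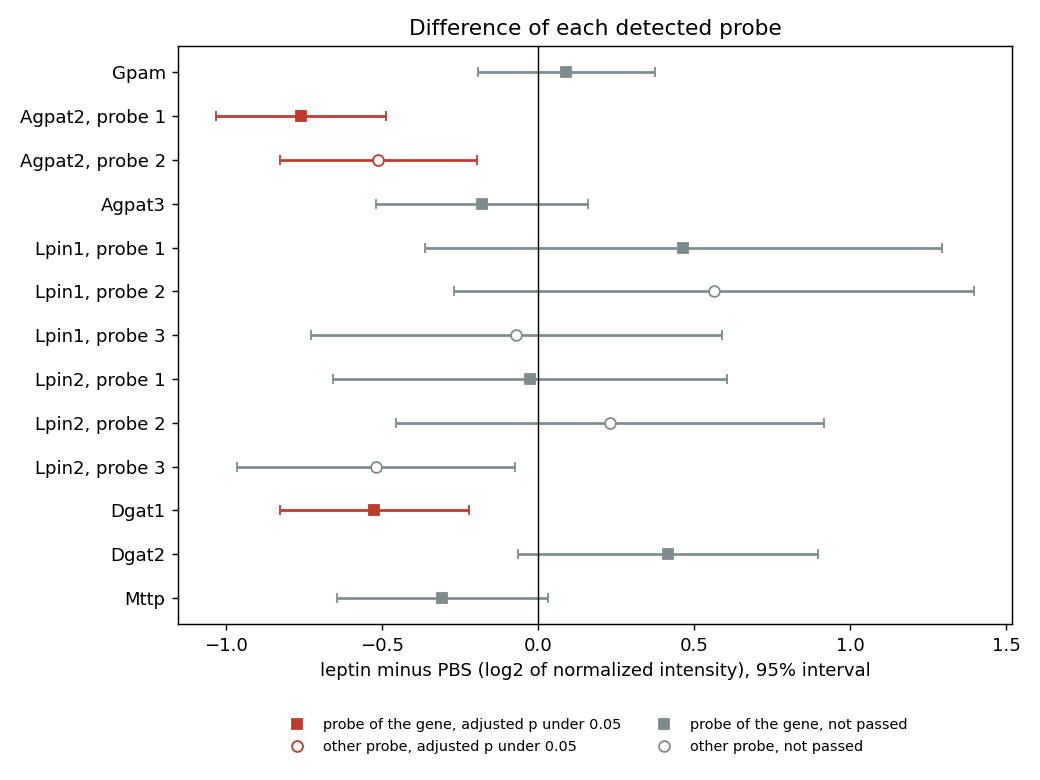
Leptin minus PBS difference (log2) of each of the 13 tested probes with its 95% interval, squares for the probe that stands for the gene and open circles for further probes. Both Agpat2 probes and the Dgat1 probe lie below 0 and passed, and the 6 lipin probes span -0.52 to 0.56 without passing.

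The calls of Agpat2 and Dgat1 held without any 1 array (adjusted p 0.000694 to 0.00591 and 0.0173 to 0.0489). The Dgat1 call was lost with the authors' deposited p-values (adjusted p = 0.0667), and both were lost with the clock score as a covariate (Agpat2 -0.58, adjusted p = 0.0563; Dgat1 -0.52, adjusted p = 0.142). The score itself differs between the groups, so its part in these results and that of leptin cannot be told apart.

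The tested genes whose values followed Agpat2 most closely within groups were Htra1 and Ints12 (Pearson r 0.86 and 0.81 over 12 arrays after centring each group, as a description). For Dgat1 they were Bzw1 and Ugt2b35 (0.92 and 0.89). None of these 4 genes passed the comparison of the groups, with adjusted p from 0.211 to 0.5.

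Genes of glycerolipid acylation outside the 8 went both ways. Over all genes 8.4% fell and 8.31% rose. The counts of this list and the following lists were not tested against those shares. Of 9 tested genes of this list, 1 rose and 1 fell, with a median of -0.14. Lpin3, the remaining lipin, was not detected on enough arrays to be tested. Gpat3, a microsomal glycerol-3-phosphate acyltransferase, fell (-1.38 ± 0.19, SE, adjusted p = 0.000636) and was detected on 1 leptin array and 6 PBS arrays. With leptin near background its size is not a measured one: without background correction Gpat3 stood at -0.47 (adjusted p = 0.00174). Its log2 intensity averaged 4.84 ± 0.39 with leptin and 6.22 ± 0.30 with PBS (SD, n = 6 each). Agpat4, also dim, rose (0.66 ± 0.17, adjusted p = 0.0211), by 0.26 without background correction (adjusted p = 0.0367). Gpat4, the other microsomal enzyme, stood at -0.27 ± 0.21 (adjusted p = 0.402) and Agpat1 at -0.14 ± 0.17 (adjusted p = 0.591).

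Of 10 tested genes that supply glycerol phosphate and acyl-CoA, 2 rose and none fell (median -0.07). Acsl4, an acyl-CoA synthetase that prefers arachidonic acid, rose (0.78 ± 0.11, adjusted p = 0.000736), as did Gpd2, the mitochondrial glycerol-3-phosphate dehydrogenase (0.62 ± 0.18, adjusted p = 0.0295). Acsl4 stood at 0.46 as a mean over its kept probes (adjusted p = 0.0170). The cytosolic Gpd1 stood at -0.39 ± 0.27 (adjusted p = 0.346). The call of Gpd2 was lost without any 1 of leptin 1, 3 and 5 and PBS 1, 4 and 5 (adjusted p 0.0503 to 0.0633), with no detection filter (adjusted p = 0.0552) and when the clock score entered the fit (0.29, adjusted p = 0.489).

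Among genes of VLDL assembly beside Mttp, 4 of 19 tested rose and 1 fell (median 0.02). The carboxylesterases Ces3a (2.77 ± 0.84) and Ces3b (1.32 ± 0.34), the sorting receptor Sort1 (1.33 ± 0.31) and Apobec1, which edits apolipoprotein B mRNA (1.25 ± 0.27), rose. The gene that fell, Mia2, which aids lipoprotein export, stood at -0.85 ± 0.18 and was named after its value was seen. Apob itself, the protein that Mttp loads, stood at 0.02 ± 0.31 (adjusted p = 0.979), and P4hb, the smaller subunit of the Mttp complex, at -0.27 ± 0.13 (adjusted p = 0.155). Ces3a lost its call without any 1 of leptin 1, 2, 3 and 6 and PBS 1, 4 and 5 (adjusted p 0.0659 to 0.0825), with no detection filter (0.102) and with robust variance (0.0515), and Ces3b with no filter (0.0503). With the clock score as a covariate Ces3a (0.44), Ces3b (0.27) and Sort1 (0.47) did not pass (adjusted p 0.820, 0.684 and 0.442). The carboxylesterases are close relatives, so their values are uncertain as to the member.

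In the branch from phosphatidic acid and diacylglycerol to phospholipids, 4 of 19 tested genes fell and 1 rose (median -0.13). Chpt1, which turns diacylglycerol into phosphatidylcholine and so competes with the Dgat enzymes for substrate, fell (-1.46 ± 0.18, adjusted p = 0.000377). Selenoi, its counterpart for phosphatidylethanolamine (-0.61 ± 0.14), and the diacylglycerol kinase Dgka (-0.60 ± 0.11) fell, and the kinase Dgkz rose (0.50 ± 0.11). Cds2, which makes CDP-diacylglycerol, also fell (-0.39 ± 0.12) and was named after its value was seen. With the clock score Selenoi, Dgka and Dgkz did not pass (adjusted p 0.0506 to 0.193), at -0.44 for Selenoi, -0.57 for Dgka and 0.36 for Dgkz.

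Droplet and lipolysis genes had the lowest median of the 6 lists around the pathway. Of 13 tested, 4 fell and none rose (median -0.35), against 8.4% and 8.31% of all genes. The droplet coat proteins Plin5 (-1.72 ± 0.22, adjusted p = 0.000515), Plin4 (-1.5 ± 0.20, adjusted p = 0.000615, detected on 1 leptin array and 6 PBS arrays, so that its size is not a measured one) and Plin2 (-1.01 ± 0.22, adjusted p = 0.00791) fell, as did the droplet protein Hsd17b11 (-0.48 ± 0.15, adjusted p = 0.0494). Without background correction Plin4 stood at -0.53 (adjusted p = 0.00205). Plin3, another coat protein, stood at 0.46 ± 0.15 (adjusted p = 0.0543). The triglyceride lipase Pnpla2 stood at -0.35 ± 0.14 (adjusted p = 0.109) and its coactivator Abhd5 at -0.19 ± 0.12 (adjusted p = 0.303). Plin2 (-0.74, adjusted p = 0.151) and Hsd17b11 (-0.65, adjusted p = 0.0799) were not called with the clock score. The call of Hsd17b11 was also lost without any 1 array except leptin 6 and PBS 2 (adjusted p 0.0560 to 0.104), without leptin 4 and PBS 3 together (0.107), as a mean over kept probes (-0.37, adjusted p = 0.177), with no detection filter (0.0798) and by the authors' deposited p-values (0.0809).

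**Figure D4:**
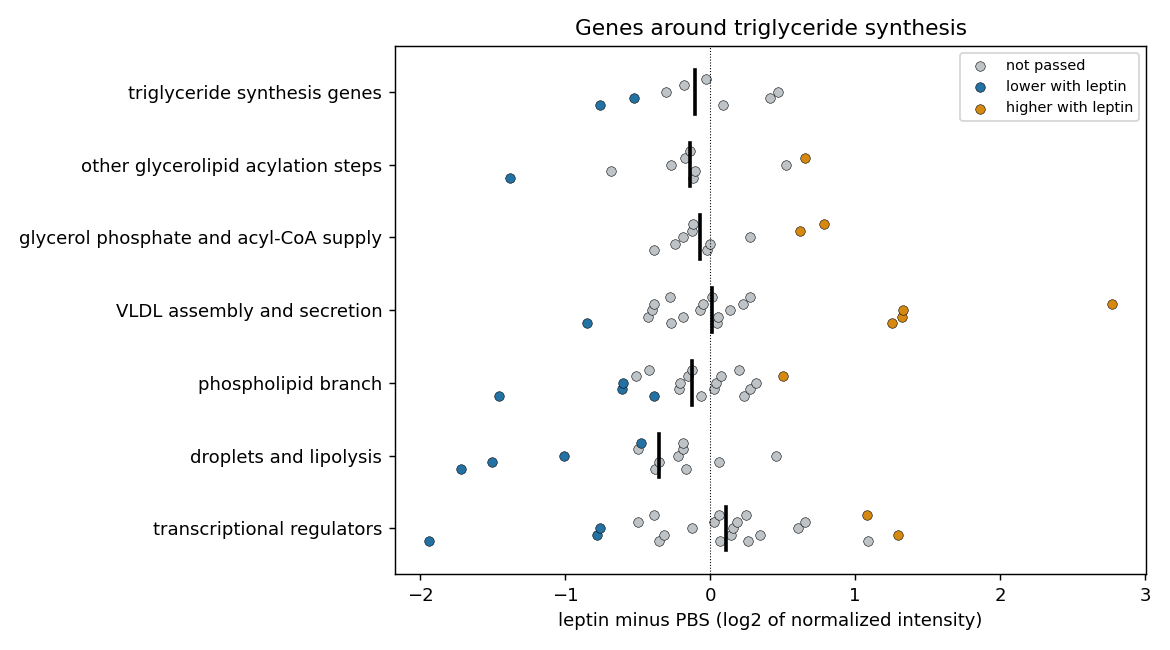
Leptin minus PBS difference (log2) of every tested gene in the triglyceride synthesis genes and 6 lists around them, a point per gene and a bar at each list's median. The 8 genes lie between -0.76 and 0.47, and Insig2, Plin5, Chpt1 and Plin2 are among the genes further below 0. Plin4 and Gpat3, plotted at -1.5 and -1.38, were detected on 1 leptin array each.

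Of 22 tested regulators of the pathway, 2 rose and 3 fell (median 0.11). Insig2, which retains SREBP in the endoplasmic reticulum, fell (-1.94 ± 0.23, adjusted p = 0.000334), and Creb3l3 (-0.78 ± 0.19) and Foxa2 (-0.76 ± 0.23, named after its value was seen) fell. Mlxipl, the carbohydrate response factor ChREBP, rose (1.29 ± 0.22), as did Srebf1 (1.08 ± 0.32), which lost its call without any 1 of leptin 1, 2, 3 and 6 and PBS 1, 2, 4 and 5 (adjusted p 0.0516 to 0.0729). Srebf1 was also not called without background correction (0.60, adjusted p = 0.0518) or with no detection filter (adjusted p = 0.0840). Neither was called with the clock score (Mlxipl 0.87, adjusted p = 0.0865; Srebf1 0.21, adjusted p = 0.774). Foxo1, which acts on Mttp, stood at 0.19 ± 0.27 (adjusted p = 0.674), and Ppargc1a, a partner of Lpin1, at -0.35 ± 0.27 (adjusted p = 0.389).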

How the data were processed

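Livers of 6 leptin and 6 PBS samples were measured on Illumina Mouse-6 V2 BeadChips, as grouped by the labels. The deposited table gives per probe an intensity (AVG_Signal) and a detection p-value, per the file headers. The authors' intensity values had no background subtracted (lowest 95.9) and already had equal distributions between arrays, although the table's name calls them non-normalized. The authors' deposited log2 values were uncentred logarithms of the same signals. The authors' Cyber-T table gives an unadjusted p-value and a log2 difference per probe, per the file headers. Its software settings are not given in the sources used here.

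Of 45281 probes, 34885 had 1 gene symbol in the platform annotation, 18 several and 10378 none. Background and scale were adjusted by limma's neqc (offset 16, quantile, log2), whose offset shrinks differences of dim genes. The size of such differences depends on this choice. Dgat1 stood at -0.53 here, at -0.43 with an offset of 50 and at -0.32 without background correction. Probes with detection p below 0.01 on at least 3 of 12 arrays were kept (15062), and a gene with several kept probes took the one of highest mean. Groups were compared with limma (lmFit, eBayes, two-sided, Benjamini-Hochberg over 8819 genes, threshold 0.05), and probes in the same way over 15062. Within-array differences of 3 pairs of relatives were compared by exact permutation. Arntl, undetected with leptin, is given as a bound from each array's lowest detected signal. The fit was also run on simulated normal noise in which 200 of 8819 genes were changed. It recovered 20.9% of true log2 differences of 0.5, 82.1% of 1 and 93.9% of 2. In the data 1474 genes passed, against 200 changed in the simulation, and the Benjamini-Hochberg cut-off depends on such numbers. The recovered shares are therefore those of the simulation only, and the share found in the data was not tested. A gene that did not pass may still differ, and the 95% intervals of such members are given above.

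All 8 genes are named, with up to 4 passing genes of greatest absolute difference from each list of neighbouring genes and, for called members, the 2 genes closest in group-centred correlation. Further genes named with their values (Gpat4, Agpat1, Gpd1, Apob, P4hb, Plin3, Pnpla2, Abhd5, Foxo1 and Ppargc1a) were chosen after their values were known, for their role. Members and lists were chosen with earlier results of these data known. Alternatives changed the background, scaling, detection filter, choice of probe, variance model and array weights, added a replicate block or clock score, used the authors' p-values, or left out arrays. No slide or batch is given in the columns used here. Promoters came from a RefSeq table of GRCm38.p6, which held 6 of the 8 genes. R 4.3.3, limma 3.58.1 and Python 3.11.15 with matplotlib 3.10.9 were used.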

Additional observations from a re-analysis of the deposited data

Results flagged for a closer look

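In Agpat3 on leptin arrays, leptin 6 stood at 7.87 (normalized log2 intensity), far from the other 5, which lay between 7.08 and 7.34. It was the array whose gap to its nearest neighbour took the largest share of the group's range, above Dixon's critical value for 6 samples. Across the 8 genes and 3 pairs, 22 such groups were looked at, and chance alone picks out about 1 in 20. Leptin 6 was also the highest leptin array in Gpam, Lpin1, Lpin2 and Dgat2.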

How the results depend on the processing

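Signal over background limits Gpam, Dgat1 and the dim lipin probes, and the intervals of Dgat2 and Mttp leave room for shifts in log2 of 0.90 and -0.65. The count of 2 called members was the same under 26 of 28 alternatives. It was 0 with the clock score, where the count of member probes called was also 0, and 1 by the authors' p-values, where the probe count was 1. Otherwise 3 member probes were called, except 2 with no detection filter and 2 to 4 leaving out single arrays. No member was called higher under any of the 28. The count of all genes called was 1474, and 2722 when each probe was tested. The Dgat1 minus Dgat2 shift did not pass without background correction or on the deposited log2 values (-0.73 in both, adjusted p = 0.0519), and it ran from -1.12 to -0.71 leaving out single arrays. The Agpat2 minus Agpat3 shift passed without any 1 array (-0.67 to -0.48), and that of Lpin1 minus Lpin2 ran from 0.39 to 0.67, passing without leptin 5 or PBS 4. With the clock score, Gpam turned to -0.21 and Lpin1 to -0.45, Lpin2 stood at -0.90, Mttp at -0.63 and Dgat2 at 0.09. Lpin2, near 0, changed sign without any 1 of leptin 3, 4 and 5 and PBS 3, 4 and 6, running from -0.20 to 0.13 over single arrays, and stood at 0.27 without PBS 3 and leptin 4. Same-numbered arrays correlated from -0.32 to 0.46 after centring, and 2 of 6 correlated best with their own number. These few values cannot tell whether the numbers pair the samples. With the replicate block, the shifts of -0.94 for Dgat1 minus Dgat2 and -0.58 for Agpat2 minus Agpat3 did not pass (adjusted p = 0.0938 for both), and the count of members called was 2. The cause of these changes was not tested.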
